A study of Nicotiana tabacum with 18 samples.

Results

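The cultivars Va116 and K326 are the first-named parents of a pair of tobacco (Nicotiana tabacum L.) crosses, and their leaf transcriptomes were compared gene by gene. Genes entered the comparison when their mean reached 1 FPKM in at least 1 of the cultivars, which was so for 34962 of the 69500 genes in the table. Values came from 6 of the 18 libraries of the series, 3 of Va116 and 3 of K326. Leaves of all plants were taken 45 days after transplanting, and the labels give no treatment. The other libraries belong to the lines GDH94 and GDH88 and to the hybrids Va116×GDH94 and K326×GDH88, with 3 replicates each. The study used the crosses to look at heterosis of leaf biomass, and the comparison here shows how far their first-named parents lay apart. The cultivars were not crossed with each other, so this is not the difference between the parents of either hybrid.

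FPKM (fragments scaled by transcript length and by the number of mapped fragments) is a level per transcript length and library size. Each replicate was a mix of leaf material from several plants of a plot, and the methods do not say whether the replicates of a genotype came from separate plots, so p-values measure the spread between these samples only. Reads of every genotype were aligned to the genome of K326. A Va116 transcript that differs in sequence from its K326 copy may then lose reads, and the part of this in the differences below was not tested.

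Tobacco is an allotetraploid that carries gene copies from both of its ancestral species, so many genes exist as near-identical pairs. Cultivars of such a crop differ in sequence, in the presence of gene copies and in the level of transcripts that they share. A mature leaf expresses mainly the genes of photosynthesis and carbon fixation, and on top of these the genes of defence, of senescence and of growth, whose levels follow the state of the plant. Level and identity of copies of a family are uncertain where RSEM, the program behind these values, had to divide reads between them.

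Replicates of a cultivar resembled each other more than they resembled the other cultivar. On the log2(FPKM + 1) scale, Pearson's r across genes, which are not independent replicates, was 0.988 to 0.989 between Va116 libraries and 0.984 to 0.989 between K326 libraries, against 0.957 to 0.964 between the cultivars. Va116 lay nearer to GDH88 (r of 0.970 to 0.972) than to K326. The FPKM of a library summed to 945893 to 953051 in Va116 and to 887628 to 936804 in K326, and 42760 to 43233 genes were above 0 in Va116 libraries against 43546 to 43705 in K326 libraries. The median SD between replicates was 0.08 in Va116 and 0.13 in K326 on the log2 scale. K326 replicate 1 had the lowest total, and in it 4 of 5 genes of sieve element occlusion proteins, which form filaments in phloem cells, were at 36.1 to 44.7 FPKM, against 18.0 to 25.4 FPKM in K326 replicates 2 and 3. Leaf identity was plain in both cultivars, with a small-chain gene of ribulose bisphosphate carboxylase (Rubisco), the enzyme that fixes carbon dioxide, at 14700 ± 261 FPKM in Va116 and 12130 ± 897 FPKM in K326 (Nitab4.5_0001382g0020, SD, n = 3 each).

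The hybrid libraries were checked against the parents by genes that only 1 of the 4 parents expressed. For this, a gene had at least 2 FPKM in every library of 1 parent and at most 0.5 FPKM in every library of the other 3, limits that were chosen after values had been seen. Of 8 genes expressed only in Va116, 1 reached at least 25% of its Va116 level in the libraries labelled Va116×GDH94, with a median of 4.84% of that level. Of 14 genes expressed only in GDH94, 3 reached it there, with a median of 1.92%. In K326×GDH88 libraries, by contrast, 5 of 5 genes expressed only in K326 reached it, with a median of 40.8%, and so did 4 of 5 genes expressed only in GDH88. In the libraries labelled Va116×GDH94, 4 of the 5 genes expressed only in K326 and 4 of the 5 expressed only in GDH88 also reached it. Genes that only 1 of the 4 parents lacked, by the reverse of these limits, were mixed. Of 33 genes lacking only in Va116, 6 stayed under 25% of the mean of the other parents in the libraries labelled Va116×GDH94. The median of the 33 there was 95.9% of that mean. Of 60 genes lacking only in GDH94, 11 stayed under 25% there, with a median of 93.5%. In K326×GDH88 libraries 0 of the 33 and 0 of the 60 did so, with medians of 94.2% and 92.6%. Reaching 25% does not by itself show a match with the label. Of 6 genes with at most 0.5 FPKM in K326 libraries and at least 2 FPKM in all libraries of the other parents, 5 reached 25% of the mean of the other parents in the libraries labelled Va116×GDH94, with a median of 109.8%, against 49.3% in K326×GDH88. Most genes expressed only in Va116 or only in GDH94, and some lacking only in 1 of these, thus do not match the label Va116×GDH94. The reason was not tested. The cultivar comparison itself uses no hybrid library, and results that do use one are given under the name "libraries labelled Va116×GDH94".

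Of the 34962 genes tested, 895 differed at a limma adjusted p below 0.05 with at least a 2-fold change on the log2(FPKM + 1) scale, which is 2.56% of them. These genes are called differentially expressed genes (DEGs) below. In Va116, 287 DEGs (0.821%) were higher and 608 (1.74%) were lower than in K326. Smaller differences were far more frequent, and at the same adjusted p with no limit on the fold 5860 genes (16.8%) were higher and 4459 (12.8%) were lower in Va116. The median log2 fold change of all tested genes was 0.05, and it was 0.01 after median-ratio scaling of the libraries and 0.00 after scaling to equal totals. Libraries of the cultivars did not overlap in 16004 genes (45.8%). In these bulk samples, fewer cells of a type and less RNA per cell cannot be told apart.

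**Figure D1:**
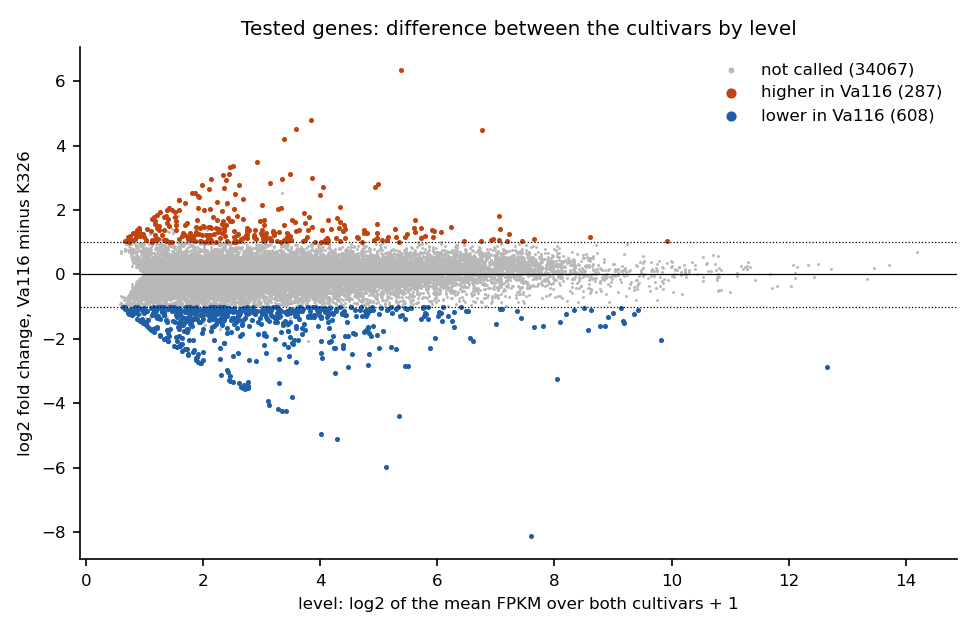
Log2 fold change of Va116 over K326 (vertical axis, log2(FPKM + 1) scale) against the level of each gene (horizontal axis, log2 of the mean FPKM plus 1) for 34962 tested genes. Orange points are the 287 DEGs higher in Va116, blue points the 608 lower in Va116, dotted lines mark a 2-fold change, and the blue points reach further from 0 than the orange ones.

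Among the DEGs, 45 of the 287 higher and 101 of the 608 lower ones differed by at least 4-fold on this scale. Past 16-fold there were 5 genes higher and 9 genes lower in Va116. The typical DEG was of moderate level, with a median of 8.05 FPKM in Va116 for the higher DEGs and 8.38 FPKM in K326 for the lower ones. Fold changes of low genes are understated by the pseudocount of 1. Genes listed at 0 in all libraries of a cultivar were tested and counted on this scale, but their folds are not printed.

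The most extreme gene was Nitab4.5_0000212g0010, for which the sources used here give no description. Its level was 0.17, 0.37 and 0.67 FPKM in Va116 replicates 1 to 3, against 316.9, 437.1 and 407.2 FPKM in K326 (log2 fold change −8.11 ± 0.15, SE, limma adjusted p = 2.94e-08). All Va116 libraries were thus near 0. GDH94 had a mean of 201 FPKM and GDH88 a mean of 244.2 FPKM of this gene, so Va116 was alone among the parents. The libraries labelled Va116×GDH94 had 0.087 FPKM and K326×GDH88 had 440.4 FPKM.

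The other 7 of the 8 genes that fell most in Va116 were expressed in every other genotype, hybrids included. A gene of the HR-like lesion inducers (Nitab4.5_0000302g0140), a family named for cell death lesions like those of the hypersensitive response, had 0.13, 0.13 and 0.05 FPKM in Va116, against 35.8, 36.5 and 38.1 FPKM in K326 (log2 fold change −5.10 ± 0.08, SE, limma adjusted p = 1.35e-08). Its means in the other genotypes were 34.7 to 50.3 FPKM. Nitab4.5_0009661g0010, a zinc finger gene with AN1 and A20 domains, a domain pair found in stress-associated proteins of plants, had 2.09, 2.60 and 3.55 FPKM in Va116, against 70.7, 78.2 and 79.7 FPKM in K326 (log2 fold change −4.38 ± 0.13, SE, limma adjusted p = 3.56e-07). Here a low but measurable level remained in all Va116 libraries. A cytochrome b5 gene, whose family passes electrons to oxidizing enzymes, was listed at 0, 0 and 0.07 FPKM in Va116 and at 16.3, 18.0 and 18.1 FPKM in K326 (Nitab4.5_0003151g0070). The gene Nitab4.5_0001737g0010, described only as unknown, had 0.1, 0 and 0.17 FPKM in Va116 against 65.7, 64.0 and 72.0 FPKM in K326. That the libraries of the cultivars do not overlap was a condition for entering these 8. The remaining genes of the 8 sit on scaffolds with runs of lower genes and are described with these.

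In the other direction the largest difference belonged to Nitab4.5_0005785g0010, which carries a lipid transfer and hydrophobic seed protein domain, a fold of small secreted proteins that bind lipids. It had 89.0, 92.0 and 62.1 FPKM in Va116 and was listed at 0 in all 3 K326 libraries (limma adjusted p = 7.01e-08). GDH94 averaged 42.0 FPKM and GDH88 27.3 FPKM, so among the parents it was K326 that lacked the transcript. The mean was 48.9 FPKM in the libraries labelled Va116×GDH94, and K326×GDH88 was listed at 0 although its parent GDH88 expressed the gene.

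Nitab4.5_0001310g0060, for which no description was at hand, was the most abundant of the 8 genes that rose most, with 204.5, 218.4 and 198.2 FPKM in Va116 against 6.41, 9.40 and 9.17 FPKM in K326 (log2 fold change 4.5 ± 0.12, SE, limma adjusted p = 2.15e-07). GDH94 matched Va116 at 200.9 FPKM, and GDH88 was intermediate at 22.4 FPKM. Nitab4.5_0007178g0020 had 24.5, 27.1 and 28.6 FPKM in Va116 and was listed at 0 in K326 and in GDH94, while GDH88 had 22.7 FPKM. Each of these genes therefore had its own pattern among the parents. Nitab4.5_0008647g0010 (7.44, 10.3 and 10.6 FPKM in Va116) and Nitab4.5_0001658g0060 (9.35, 9.63 and 8.17 FPKM in Va116) were listed at 0 in K326, were expressed in GDH94 at 10.4 and 14.1 FPKM and were at 0.423 FPKM in GDH88. For Nitab4.5_0000069g0380, at 12.2, 13.6 and 12.8 FPKM in Va116 against 0.35, 0.13 and 0.23 FPKM in K326, GDH94 and GDH88 were at the Va116 level with 11.5 and 11.2 FPKM.

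A pair of genes on scaffold 0000386 was high in Va116 alone. Nitab4.5_0000386g0170, described as unknown, had 21.3, 22.0 and 22.8 FPKM in Va116 and was listed at 0 in K326 and GDH94, with 0.363 FPKM in GDH88. Nitab4.5_0000386g0150, a probable transposase of the Ptta/En/Spm kind, a protein of DNA transposons, had 15.9, 20.4 and 19.7 FPKM in Va116, against 0, 0.11 and 0.10 FPKM in K326 (log2 fold change 4.19 ± 0.12, SE, limma adjusted p = 2.60e-07). In the libraries labelled Va116×GDH94 their means were 0.097 and 0.937 FPKM.

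**Figure D2:**
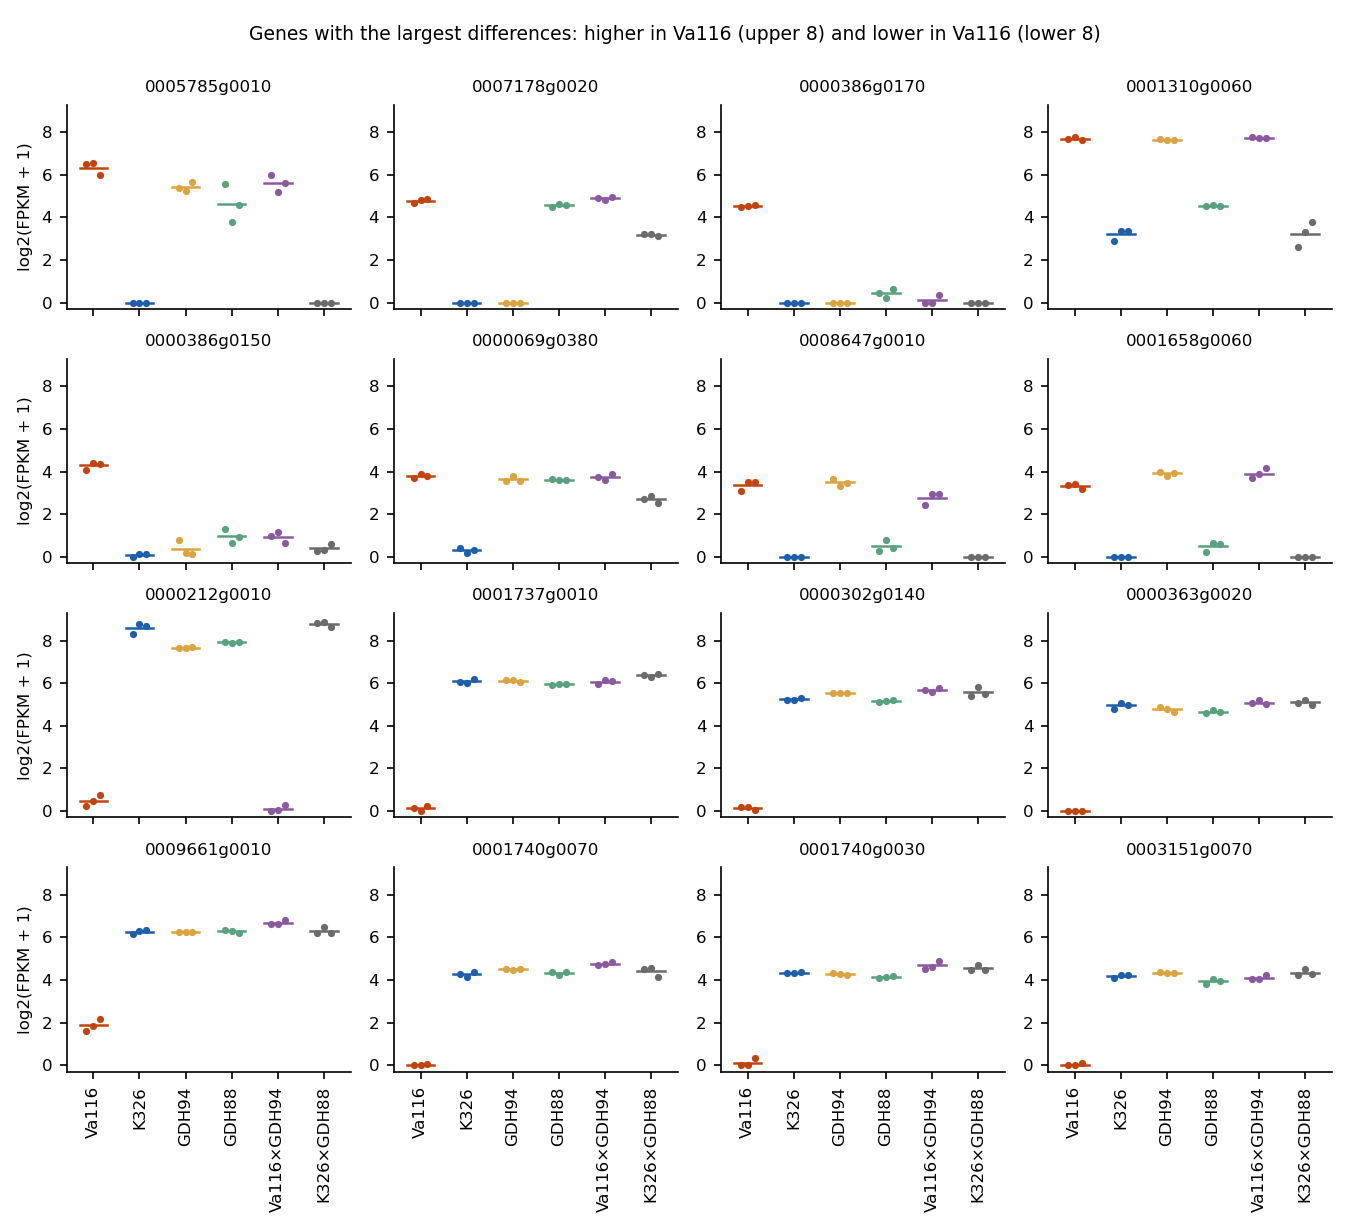
Level of 16 genes in all 18 libraries as log2(FPKM + 1) (vertical axis), with the 6 genotypes along the horizontal axis, a point for each replicate and a line at the mean of the 3. The upper 8 panels hold the genes that rose most in Va116 and the lower 8 those that fell most, and in 7 of the lower 8 Va116 is the single genotype at a low level.

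Among DEGs with a description, 65 of the higher and 191 of the lower ones had one other than unknown. Apart from the genes above, those that rose most were led by Nitab4.5_0021935g0010 with an NB-ARC domain, the nucleotide-binding switch of intracellular immune receptors, at 8.53, 8.87 and 8.95 FPKM in Va116 against 0.18, 0.12 and 0.09 FPKM in K326 (log2 fold change 3.11 ± 0.10, SE, limma adjusted p = 5.07e-07). A second NB-ARC gene, Nitab4.5_0000295g0060, had 8.41, 9.21 and 8.99 FPKM in Va116 and 0.92, 0.39 and 1.01 FPKM in K326. Neither was above a mean of 1.01 FPKM in any other genotype, the libraries labelled Va116×GDH94 included. A mannose-binding lectin gene, whose domain recognizes sugars, was at 6.42, 4.86 and 8.03 FPKM in Va116 against 0.31, 0.10 and 0.10 FPKM in K326 (Nitab4.5_0002977g0130). Its neighbour by number, Nitab4.5_0002977g0140, which joins a lectin to a resistance protein domain, ran the other way, with 0.74, 0.65 and 0.81 FPKM in Va116 against 19.4, 15.1 and 16.1 FPKM in K326 (log2 fold change −3.36 ± 0.11, SE, limma adjusted p = 5.22e-07).

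Further described genes that rose were a Pumilio gene, whose family binds messenger RNA, at 5.28, 5.03 and 5.15 FPKM in Va116 against 0.07, 0.08 and 0.05 FPKM in K326 (Nitab4.5_0002448g0020), and a GRF-type zinc finger gene at 5.74, 5.76 and 6.10 FPKM in Va116 and listed at 0 in K326 (Nitab4.5_0006600g0020). Described genes that fell included a Myb-like gene of the homeodomain-like fold, a DNA-binding fold of transcription factors, listed at 0 in all Va116 libraries and at 16.1, 15.5 and 14.7 FPKM in K326 (Nitab4.5_0002256g0020). A RING zinc finger gene, the domain of many ubiquitin ligases, had 0.03, 0 and 0.05 FPKM in Va116 and 11.2, 10.5 and 11.6 FPKM in K326 (Nitab4.5_0000287g0070). That the libraries of the cultivars do not overlap was a condition for naming these genes.

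Genes that were listed at 0 in all libraries of a cultivar while the other reached a mean of 1 FPKM were counted separately. In this sense 58 genes were listed at 0 in Va116 and expressed in K326, and 35 were listed at 0 in K326 and expressed in Va116. Of these, 32 and 18 were DEGs, and 34 and 18 were above 0 in all 3 libraries of the cultivar that expressed them. Most were low, with a median of 1.98 FPKM in K326 for the genes absent from the Va116 values and 1.82 FPKM in Va116 for those absent from the K326 values. Of the 58 genes at 0 in Va116, 28 reached 1 FPKM in GDH94 and 29 in GDH88. Of the 35 genes at 0 in K326, 12 reached it in GDH94 and 12 in GDH88. With a minimum mean of 5 FPKM the counts were 10 and 7, and leaving out a Va116 library raised the 58 to up to 94, since fewer libraries then had to be at 0. Among the genes at 0 in Va116 was Nitab4.5_0004398g0070 with no description, which had 9.50, 8.18 and 9.11 FPKM in K326 and was also listed at 0 in GDH94 and in the libraries labelled Va116×GDH94, while GDH88 and K326×GDH88 had 8.76 and 11.8 FPKM.

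Levels in the GDH lines show which cultivar stood apart. In 163 of the 608 DEGs lower in Va116, Va116 was at least 2-fold below each of the other 3 parents, whereas K326 was at least 2-fold above each of them in 49. Among the 101 of these DEGs with at least a 4-fold difference, Va116 stood apart in 59 and K326 in 17. Of the 287 DEGs higher in Va116, Va116 stood apart in 49 and K326 in 50. GDH94 was nearer to K326 than to Va116 in 440 of the 608 lower and in 148 of the 287 higher DEGs, and GDH88 in 332 and 138. These counts are descriptions over the same Va116 and K326 libraries that called the DEGs.

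The digits before the letter g of an identifier were read as its scaffold and those after it as its order along the scaffold, which no annotation was at hand to check. The 895 DEGs fell on 746 of the 9780 scaffolds with tested genes, and 246 of them shared a scaffold with another DEG. In 42 places at least 2 neighbouring tested genes were DEGs in the same direction, of which 35 runs were lower and 7 higher in Va116, and 91 DEGs lay in such runs. For comparison, 1.74% of all tested genes were DEGs lower in Va116. How neighbours came to differ together was not tested.

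The longest run held 5 genes on scaffold 0000363, all lower in Va116. Nitab4.5_0000363g0020, with the fold of nitrogen regulatory protein PII, a sensor of carbon and nitrogen status in plastids, was listed at 0 in all Va116 libraries and had 26.9, 33.1 and 30.6 FPKM in K326 (limma adjusted p = 3.55e-08). Next to it, Nitab4.5_0000363g0010, a proteinase inhibitor of the Pin2 family that acts against insect digestive enzymes, had 0.06, 0 and 0.14 FPKM in Va116 against 7.60, 12.8 and 14.4 FPKM in K326. A gene of a protein phosphatase 2C, a family that includes brakes on abscisic acid signalling, had 0.16, 0.18 and 0.23 FPKM in Va116 against 3.36, 4.56 and 2.92 FPKM in K326 (Nitab4.5_0000363g0030). Also lower in the same stretch were Nitab4.5_0000363g0070 with a beta-propeller domain (log2 fold change −1.53) and Nitab4.5_0000363g0080, described as unknown (log2 fold change −2.66). All 5 were expressed in each of the other 5 genotypes, with means of 2.36 to 33.3 FPKM.

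On scaffold 0001740 a run of 4 genes had the same shape. A HIT-type zinc finger gene, Nitab4.5_0001740g0070, was listed at 0, 0 and 0.04 FPKM in Va116 against 18.5, 16.7 and 19.5 FPKM in K326 (log2 fold change −4.24 ± 0.10, SE, limma adjusted p = 8.28e-08). Nitab4.5_0001740g0030, described as unknown, had 0, 0 and 0.25 FPKM in Va116 against 18.9, 18.9 and 20.1 FPKM in K326. A RING zinc finger gene was at 0 in all Va116 libraries (Nitab4.5_0001740g0010, 5.97, 5.87 and 4.12 FPKM in K326). The fourth, a glycosyltransferase of family 28, which adds sugars, kept a level of 2.42, 2.80 and 2.49 FPKM in Va116 against 8.17, 7.95 and 6.80 FPKM in K326 (Nitab4.5_0001740g0020). In the other genotypes the 4 genes had means of 4.54 to 26.2 FPKM.

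Runs of 3 genes on scaffolds 0006949 and 0000188 differed from this. On 0006949, a chaperonin gene of the Cpn60/TCP-1 kind, a protein-folding machine, was listed at 0 in Va116, GDH94 and GDH88 and had 9.61, 6.31 and 7.72 FPKM in K326 (Nitab4.5_0006949g0030). Its neighbours with a DUF724 domain of unknown function had 0.14, 0.02 and 0.05 FPKM in Va116 against 9.88, 9.77 and 10.9 FPKM in K326 (Nitab4.5_0006949g0020), and 0.29, 0.28 and 0.17 FPKM in Va116 against 6.14, 4.42 and 6.61 FPKM in K326 (Nitab4.5_0006949g0010). K326 was thus the single parent with the transcripts. K326×GDH88 had means of 2.34 to 5.49 FPKM of the 3 genes, and the libraries labelled Va116×GDH94 had 3.57 to 7.03 FPKM although neither of their labelled parents had a mean above 0.403 FPKM. On 0000188, Nitab4.5_0000188g0330 had 0.19, 0.05 and 0.10 FPKM in Va116 against 4.07, 4.56 and 4.94 FPKM in K326, with GDH94 at 0.153 FPKM and GDH88 at 4.14 FPKM. The genes beside it, Nitab4.5_0000188g0340 and Nitab4.5_0000188g0350, differed from K326 by −1.85 and −2.27 on the log2 scale, and none of the 3 had a description at hand.

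**Figure D3:**
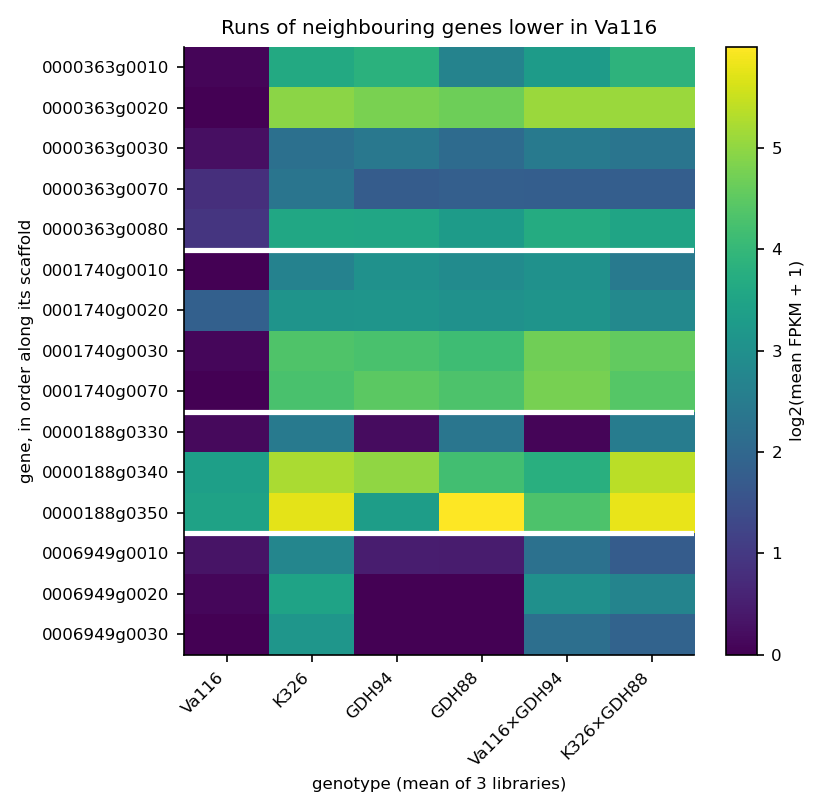
Mean level of the 15 genes of the 4 longest runs (rows, in order along each scaffold, white lines between scaffolds) in the 6 genotypes (columns, mean of 3 libraries each), with colour for log2(mean FPKM + 1). In each row of scaffolds 0000363 and 0001740 Va116 is the darkest column, and those of 0006949 are dark in Va116, GDH94 and GDH88.

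Functional groups were formed from descriptions that the study's supplementary sheets give for 2031 genes, of which 1533 were tested. Of the 2031 genes, 1881 were picked by the study for a difference between Va116×GDH94 and Va116, a choice that used the same Va116 libraries. Described genes were accordingly called more often than others, with 90 (5.87%) higher and 244 (15.9%) lower in Va116. At the adjusted p with no fold limit, 248 of the 1533 were higher and 630 were lower. Their median log2 fold change was −0.25. Counts in the groups below are read against these shares, and the direction of a group is not independent evidence. Summed levels of a group cover all its described members, those too low to be tested included.

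Secreted defence proteins had the lowest median of all groups, −1.17 on the log2 scale, against 0.05 over all genes tested. Of 31 members tested, 18 were lower (58.1%) and 2 were higher in Va116. A chitinase-type gene of glycoside hydrolase family 19, an enzyme that cuts fungal chitin, had 5.13, 5.48 and 7.28 FPKM in Va116 against 24.5, 33.6 and 27.2 FPKM in K326 (Nitab4.5_0000022g0230, log2 fold change −2.08 ± 0.14, SE, limma adjusted p = 3.26e-05). A thaumatin gene, of a family of pathogenesis-related proteins, had 3.09, 3.03 and 3.35 FPKM in Va116 against 14.8, 14.8 and 24.6 FPKM in K326 (Nitab4.5_0000360g0100). The most abundant member that fell, with a chitin-binding domain, was at 37.6, 38.8 and 35.2 FPKM in Va116 against 104.5, 115.1 and 132.6 FPKM in K326 (Nitab4.5_0005898g0010). Glucanase-type genes of glycoside hydrolase family 17 made up 6 of the 18. Another 3 of the 18 are peptidases, papain-type (Nitab4.5_0000681g0130 and Nitab4.5_0001812g0100) or subtilisin-type (Nitab4.5_0011049g0010), which entered the group through an inhibitor domain of their own.

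Both members that rose are described as systemic acquired resistance proteins, named for the resistance that spreads through a plant after infection. Nitab4.5_0000037g0340 had 49.0, 56.1 and 58.1 FPKM in Va116 against 11.1, 5.31 and 5.35 FPKM in K326 (log2 fold change 2.81 ± 0.23, SE, limma adjusted p = 7.87e-05). Nitab4.5_0000037g0360 on the same scaffold had 1322, 1291 and 1278 FPKM in Va116 against 532, 619 and 779.2 FPKM in K326. This abundant gene turned the summed level of the group, which was 1466 to 1496 FPKM in Va116 and 857.9 to 1188 FPKM in K326, so that the sum was higher while the median member was lower. Reads of such neighbouring copies may have been divided between them.

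Several transcription factors of stress and senescence were lower in Va116. Of 27 WRKY genes tested, which bind W-box elements of defence genes, 8 were lower (29.6%) and 0 were higher, with a median of −0.85. With no fold limit 22 of the 27 were lower at the adjusted p, against 630 of the 1533 described genes. Nitab4.5_0002758g0040 had 9.92, 11.1 and 12 FPKM in Va116 against 46.8, 31.0 and 43.8 FPKM in K326 (log2 fold change −1.77 ± 0.14, SE, limma adjusted p = 7.97e-05). In Nitab4.5_0000627g0060, the WRKY gene with the largest fold, levels were 0.21, 0.21 and 0.08 FPKM in Va116 against 3.73, 2.89 and 2.76 FPKM in K326. Summed over the group, Va116 had 107.6 to 114.5 FPKM and K326 217 to 277.3 FPKM. GDH88, at 103.9 to 107 FPKM, lay at the level of Va116, and GDH94, at 265.9 to 270.3 FPKM, lay at that of K326.

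Of 22 AP2/ERF genes, a family that includes ethylene response factors, 7 were lower (31.8%) and 1 was higher, with a median of −0.68. Nitab4.5_0000202g0480 was listed at 0 in all Va116 libraries and had 5.04, 4.47 and 4.51 FPKM in K326. The member that rose, Nitab4.5_0000481g0010, had 13.6, 13.2 and 13.5 FPKM in Va116 against 5.21, 6.40 and 6.72 FPKM in K326, and its log2 fold change of 1.03 fell below the 2-fold limit without K326 replicate 1 (0.93) and under both scalings that use library totals or medians (0.98 each). Of 12 genes with a NAC domain, 3 were lower (25%, against 15.9% of all described genes) and 0 were higher. Most of the 12 are of the NAC transcription factors, regulators of senescence and stress, but Nitab4.5_0000115g0080, which was not called, is a subunit of the nascent polypeptide-associated complex, a ribosome partner of the same abbreviation. The lower gene with the largest fold was Nitab4.5_0000188g0310, at 1.63, 1.26 and 1.62 FPKM in Va116 against 6.88, 3.77 and 4.70 FPKM in K326.

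Genes of auxin transport and response were lower in Va116, or were not called. Of 11 tested, 6 were lower (54.5%) and 0 were higher in Va116, with a median of −1.01. The summed level of the group was 22.1 to 24.1 FPKM in Va116 against 86.9 to 115.8 FPKM in K326. An AUX/IAA gene, of the repressors that auxin removes, was listed at 0 in Va116 and had 11.2, 7.02 and 9.79 FPKM in K326 (Nitab4.5_0007553g0010). A dormancy and auxin associated gene had 11.8, 13.2 and 11.3 FPKM in Va116 against 68.9, 55.2 and 68.3 FPKM in K326 (Nitab4.5_0005982g0020, log2 fold change −2.31 ± 0.10, SE). A pair of neighbouring efflux carriers, which move auxin out of cells, were low as well, Nitab4.5_0007384g0040 with 0.05, 0 and 0.25 FPKM in Va116 against 6.17, 5.28 and 6.18 FPKM in K326. The summed level was 103 to 106 FPKM in GDH94 and 73.0 to 74.4 FPKM in GDH88, so Va116 lay below all other parents here.

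Immune receptors moved in both directions. Of 19 NB-ARC genes tested, 4 were higher and 4 were lower in Va116 (21.05% each), and the median was −0.56. Among all described genes 5.87% were higher and 15.9% were lower. Besides the genes above, Nitab4.5_0002616g0130 fell to a mean of 4.07 FPKM in Va116, against 26.2 FPKM in K326, and Nitab4.5_0010653g0010 rose to 2.43 FPKM, against 0.080 FPKM in K326. Another 27 described NB-ARC genes were below 1 FPKM in both cultivars and were not tested.

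Protein kinases, the largest group, held 69 tested genes, of which 2 were higher and 4 were lower in Va116, with a median of −0.53. The share of lower kinases, 5.80%, was below the 15.9% of all described genes. Leaving out K326 replicate 2 raised the number of lower kinases to 8. Nitab4.5_0000268g0080, an AGC-type kinase, was nearly silent in Va116 (0, 0.04 and 0.02 FPKM against 4.10, 3.63 and 3.78 FPKM in K326), and Nitab4.5_0005784g0060 rose (5.33, 4.19 and 3.83 FPKM in Va116 against 1.01, 0.77 and 1.04 FPKM in K326). Of 30 cytochrome P450 genes, oxidizing enzymes of specialised metabolism and hormones, 7 were lower (23.3%) and 0 were higher, led by Nitab4.5_0000806g0160 with 0.51, 0.85 and 0.48 FPKM in Va116 against 3.84, 3.58 and 3.21 FPKM in K326. Peroxidases held 8 tested genes, of which 2 fell (25%) and 1 rose (12.5%). The strongest of them, Nitab4.5_0003436g0020, had 9.47, 9.82 and 10.8 FPKM in Va116 against 74.2, 66.8 and 93.2 FPKM in K326 (log2 fold change −2.83 ± 0.12, SE, limma adjusted p = 1.93e-06).

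With a pseudocount of 0.1 the number of lower members became 18 for WRKY, 13 for cytochrome P450, 9 for NB-ARC and 29 for protein kinases, and 408 of the 1533 described genes were then lower. At a limit of 4-fold, 3 defence proteins, 3 auxin-related genes and no WRKY or cytochrome P450 gene were still lower. In the libraries labelled Va116×GDH94 the group medians of WRKY, AP2/ERF, NAC, NB-ARC, defence, kinase, cytochrome P450, auxin-related and peroxidase genes were 0.66 to 1.26 above Va116 on the log2 scale, the comparison for which most described genes were picked.

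Of 8 tested genes of light harvesting and the photosystems 1 was called higher in Va116 and 0 lower. The 8 include Nitab4.5_0007104g0040, described as an RNA polymerase subunit that also has a photosystem antenna domain. It was not called (log2 fold change 0.77, limma adjusted p = 0.00371). With no fold limit 6 of the 8 were higher at the adjusted p, against 248 of the 1533 described genes, and the median was 0.74. The genes of the PsbQ and PsbP proteins of the oxygen-evolving complex differed by −0.05 and 0.15 and did not pass. The called gene, Nitab4.5_0000592g0360 of the chlorophyll a/b binding proteins that make up the antenna, had 54.8, 58.2 and 53.3 FPKM in Va116 against 20.1, 22.7 and 17.9 FPKM in K326 (log2 fold change 1.42 ± 0.09, SE, limma adjusted p = 2.03e-05). Summed, the group had 419.5 to 431.8 FPKM in Va116 and 331.3 to 383.8 FPKM in K326. Of 17 genes of ribosomal proteins, the structural parts of ribosomes, 1 was called higher (5.88%, against 5.87% of all described genes, and 0 after quantile normalization), 11 were higher with no fold limit, and the median was 0.48. Nitab4.5_0000326g0220 of the L2 family had 159.4, 162.6 and 165.3 FPKM in Va116 against 71.8, 85.0 and 75.6 FPKM in K326.

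The Rubisco genes held abundant small-chain copies and low large-chain copies. The small-chain gene Nitab4.5_0002207g0050 had 1609, 1546 and 1369 FPKM in Va116 against 10730, 8572 and 14950 FPKM in K326 (log2 fold change −2.88 ± 0.18, SE, limma adjusted p = 2.00e-05). Its means were 2284 FPKM in GDH94, 11530 FPKM in GDH88, 5.27 FPKM in the libraries labelled Va116×GDH94 and 22470 FPKM in K326×GDH88. The other small-chain gene given above differed by 0.28 on the log2 scale in the opposite direction, below the 2-fold limit. The 8 described Rubisco genes summed to 15860 to 16550 FPKM in Va116 and to 21510 to 27270 FPKM in K326. Any Rubisco genes that the study's sheets do not describe are not in this sum. Small-chain genes are near-identical copies, so the division of reads between them is uncertain. A large-chain copy was called higher, with 2.30, 4.44 and 5.02 FPKM in Va116 against 1.74, 1.27 and 0.61 FPKM in K326 (Nitab4.5_0000007g0300), and its log2 fold change of 1.14 fell below the limit without Va116 replicate 3 (0.97) or K326 replicate 3 (0.93). The large chain is encoded in the plastid, and these identifiers are copies on scaffolds of the assembly.

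**Figure D4:**
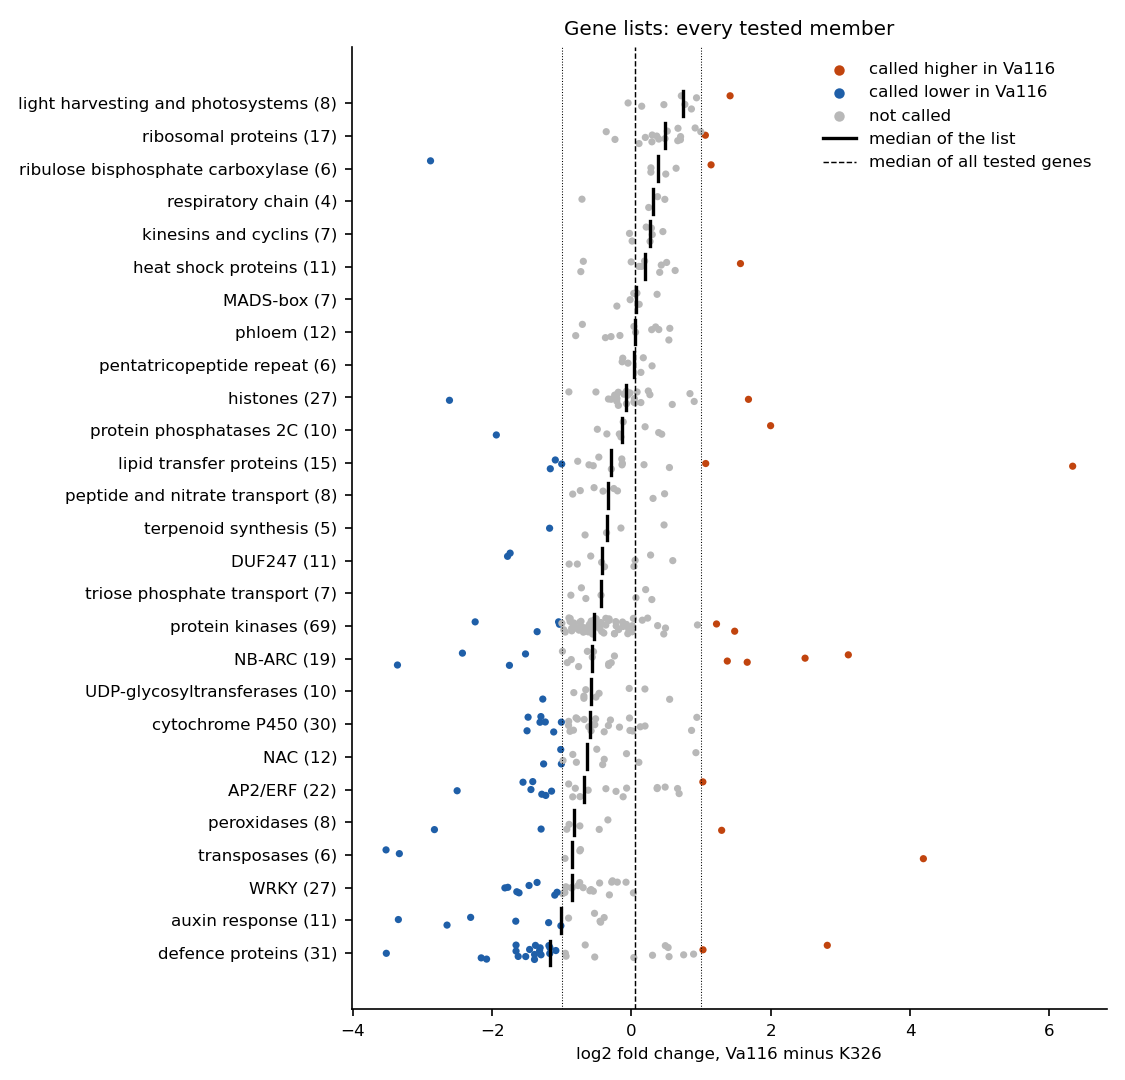
Log2 fold change of Va116 over K326 (horizontal axis, log2(FPKM + 1) scale) for every tested member of 27 groups of described genes (vertical axis, number tested in parentheses). Orange and blue points are members called higher and lower in Va116, grey points are not called, black bars are group medians, the dashed line is the median of all genes at 0.05, and defence proteins, auxin-related and WRKY genes are at the bottom.

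Groups that mark other tissues and cell states were looked at for the makeup of the samples, and members were called in the histone and lipid transfer groups. For phloem genes, which mark veins, 0 of 12 were called and the summed level was 263.9 to 283.4 FPKM in Va116 and 214.6 to 283.5 FPKM in K326. Kinesins and cyclins, which mark dividing cells, had 0 of 7 called. Their 15 described members summed to 16.5 to 18.3 FPKM in Va116 and 11.3 to 20.01 FPKM in K326. All members of both groups were above 0 in some library. Of 27 histone genes 1 rose and 1 fell: Nitab4.5_0001523g0030 (H2B) had 68.7, 85.8 and 66.1 FPKM in Va116 against 21.5, 19.99 and 25.1 FPKM in K326, and Nitab4.5_0001651g0150 (H2A) had 1.34, 2.59 and 1.48 FPKM in Va116 against 17.03, 14.4 and 16.2 FPKM in K326. MADS-box genes, regulators of flowering and organ identity, had 0 of 7 called, with sums of 44.7 to 47.2 FPKM in Va116 and 42.6 to 51.0 FPKM in K326. Of 15 lipid transfer genes, many of them active in the epidermis, 2 were higher and 3 were lower, Nitab4.5_0005785g0010 described above being the member that rose most, and the sums were 582.5 to 605.4 FPKM in Va116 and 609.9 to 690.4 FPKM in K326. The lower member Nitab4.5_0000014g0430 (log2 fold change −1.16) was at −0.90 without K326 replicate 3. Whether cell composition had a part in the differences of other groups was not tested.

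Small groups held single genes with large differences. Of 6 tested transposase genes, 1 rose, which was Nitab4.5_0000386g0150 above, and 2 fell, Nitab4.5_0000051g0340 with 0, 0 and 0.08 FPKM in Va116 against 11.2, 11.7 and 9.60 FPKM in K326 and Nitab4.5_0000008g0430 with 0.21, 0.13 and 0.32 FPKM in Va116 against 13.5, 10.1 and 10.5 FPKM in K326. A heat shock DnaJ gene, a partner of chaperones, was the single member called of 11 and had 43.8, 47.3 and 46.2 FPKM in Va116 against 15.4, 14.7 and 14.2 FPKM in K326 (Nitab4.5_0003750g0020). Of 10 phosphatase 2C genes, Nitab4.5_0000363g0030 fell, as given above, and Nitab4.5_0002918g0050 rose, with 3.56, 3.12 and 3.55 FPKM in Va116 against 0, 0.07 and 0.25 FPKM in K326. A DUF247 gene of unknown function was the least even of the named genes, with 0.28, 0.39 and 0.39 FPKM in Va116 against 8.03, 1.66 and 3.16 FPKM in K326 (Nitab4.5_0002329g0190).

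Of the 10 genes on the primer list for the qRT-PCR of the study, 1 was a DEG. NtSDHB, the iron-sulphur subunit of succinate dehydrogenase in mitochondria, had 8.96, 9.38 and 9.31 FPKM in Va116 against 3.64, 3.56 and 2.87 FPKM in K326 (Nitab4.5_0002158g0230, log2 fold change 1.23 ± 0.10, SE, limma adjusted p = 6.81e-05). NtLhcb1, an antenna protein of photosystem II, was at 17.3, 17.4 and 17.9 FPKM in Va116 against 10.7, 10.8 and 9.36 FPKM in K326, so the libraries did not overlap while its log2 fold change of 0.72 stayed below the limit (limma adjusted p = 0.000305). NtLhcb2 differed by 0.27 (46.6, 46.3 and 48.3 FPKM in Va116 against 36.9, 41.0 and 38.9 FPKM in K326).

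NtPsbA, a copy of the gene for the D1 protein, had 0.85, 1.57 and 1.33 FPKM in Va116 against 0.26, 0.21 and 0.04 FPKM in K326, a log2 fold change of 0.93 that reached 1.07 without Va116 replicate 1 and 2.39 with a pseudocount of 0.1. NtPsb (−0.16), NtatpF (−0.24) and NtrbcL (0.28) had limma adjusted p-values of 0.243 to 0.555 and overlapping libraries. Among the genes of respiration besides NtSDHB, NtMDH1, a malate dehydrogenase, had 202.6, 205.9 and 203 FPKM in Va116 against 241.2, 238.8 and 222.8 FPKM in K326, a log2 fold change of −0.20 (limma adjusted p = 0.0243). NtOGDH, a subunit gene of the 2-oxoglutarate dehydrogenase complex, differed by 0.12 (limma adjusted p = 0.312). NtLR25, which is on the same list, differed by 0.20 (limma adjusted p = 0.0629).

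The hybrids gave a separate measurement of the same genes, with no library shared with the cultivars, though their other parents differ too. Between the libraries labelled Va116×GDH94 and those of K326×GDH88, 433 of the 34962 genes were higher (1.24%) and 470 were lower (1.34%) by the same limits. Of the 287 DEGs higher in Va116, 64 were also higher in the libraries labelled Va116×GDH94 and 9 were lower. Of the 608 DEGs lower in Va116, 105 were lower there and 17 were higher. Median log2 fold changes between the hybrids were 0.34 for the higher and −0.20 for the lower DEGs, against 0.19 for all tested genes.

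Among the named genes the hybrids fell into both kinds. Nitab4.5_0000212g0010 (−8.67 between the hybrids) and Nitab4.5_0001310g0060 (4.52) differed in the hybrids in the same direction as in the cultivars, and so did Nitab4.5_0005785g0010, which was listed at 0 in all K326×GDH88 libraries. The runs on scaffolds 0000363 and 0001740 did not follow, with log2 fold changes of −0.58 to 0.55 between the hybrids. Nor did the run on 0006949 (0.28 to 0.50), whereas the run on 0000188 did, with −2.42, −1.59 and −1.48. Of the 8 WRKY genes lower in Va116, 0 were called between the hybrids, and the median of all 27 was 0.37. In the Rubisco small-chain gene Nitab4.5_0002207g0050 the difference between the hybrids was larger than between the cultivars (−12.29). In light of the check of single-parent genes above, these values describe the libraries as labelled.

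**Figure D5:**
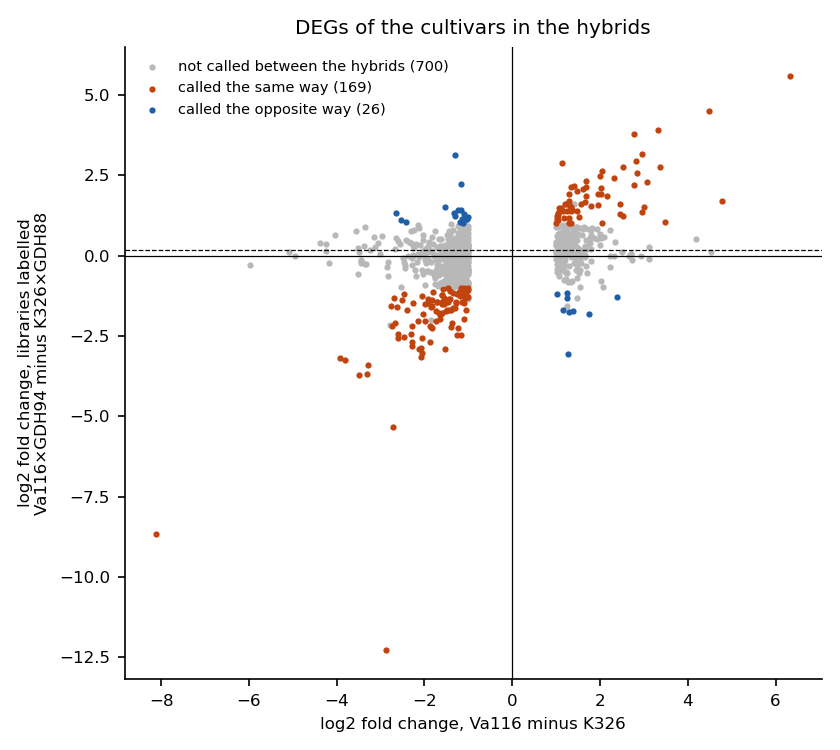
Log2 fold change between the hybrids (vertical axis, libraries labelled Va116×GDH94 minus K326×GDH88) against that between the cultivars (horizontal axis, Va116 minus K326) for the 895 DEGs of the cultivars, both on the log2(FPKM + 1) scale. Orange points are the 169 DEGs called the same way in both, blue points the 26 called the opposite way, grey points the 700 not called between the hybrids, and the dashed line is the hybrid median of all tested genes at 0.19.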

How the data were processed

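RNA of tobacco leaves was sequenced for 6 genotypes with 3 replicates each, and the 6 libraries of Va116 and K326 were compared. Per the study's methods and the processing notes of the submitters, the authors aligned the reads to the K326 genome with HISAT2 and estimated gene levels with RSEM; StringTie is also named. The deposited values are FPKM to 2 decimals, and the reads behind each gene's value are unknown, so no counting interval was computed and precision comes from the replicates. Gene identifiers start with Nitab4.5, and the version of the build is otherwise not given in the sources used here. The DESeq2 calls of the authors, made on counts, were not used here.

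Genes with a mean of at least 1 FPKM in either cultivar were tested on log2(FPKM + 1) with limma 3.58.1 in R 4.3.3 (lmFit and eBayes with a trend, two-sided, no covariate), with Benjamini-Hochberg adjustment over all 34962 genes. A DEG had an adjusted p under 0.05 and an absolute log2 fold change of at least 1. The hybrids were fitted in the same way on the same genes. Tables were made with Python 3.11.15, NumPy 2.4.6 and pandas 2.3.3, and figures with matplotlib 3.10.9. On simulated data for the 34962 genes, 196 of 200 genes changed by 4-fold were called, with 0 false calls. The noise was normal, unchanged genes had equal means, and changed genes were drawn only from those above a minimum level in Va116. Changes near the fold limit and changes in low genes were therefore not tried.

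Named genes are the 10 qRT-PCR genes, the 8 DEGs with the largest rise and the 8 with the largest fall, given a mean of at least 5 FPKM in the higher cultivar and no overlap, the same among described DEGs, the 4 genes highest in a cultivar and listed at 0 in the other, the called member with the largest fold in each direction of groups with at least 2 called, and the genes of the longest runs along a scaffold. Further group members were named after their values were seen. Gene groups were matched by words in the study's descriptions, and 0 identifiers matched the RefSeq table. Genes, groups and tests were chosen with earlier results of these data known. Alternatives were the pseudocount, the filter, 3 scalings, all 18 libraries in 1 fit, the replicate number as a block, the fold and p limits, the variance trend and each library left out.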

Additional observations from a re-analysis of the deposited data

How the results depend on the processing

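The number of DEGs between Va116 and K326 depended mainly on the pseudocount and the fold limit. It was 895 (287 higher, 608 lower), 1600 (498 higher, 1102 lower) with a pseudocount of 0.1, 146 (45 higher, 101 lower) at a limit of 4-fold and 10319 (5860 higher, 4459 lower) with no fold limit. DEGs called the same way between the hybrids numbered 169, and 289, 38 and 2863 under these settings. Genes listed at 0 in K326 and expressed in Va116 went from 35 to 7 at a minimum mean of 5 FPKM, and leaving out a library gave 46 to 54. Genes listed at 0 in Va116 and expressed in K326 went from 58 to 10, and leaving out a library gave 63 to 94. Leaving out each library gave 898 to 1015 DEGs, of which 763 to 829 were among the 895. Filters, scalings, a fit on all 18 libraries, an adjusted p under 0.01 and a fit without the trend gave 608 to 934 DEGs, and the share of higher calls was 27.4% to 32.8%. Of 66 named genes, 57 were called, and 16 of these lost the call in some setting, all 16 at the 4-fold limit. The log2 fold change of NtrbcL, 0.28, was −0.063 without K326 replicate 3 and up to 0.48 when other libraries were left out. Replicate numbers did not pair the samples, since deviations of same-numbered Va116 and K326 libraries correlated at −0.02, 0.01 and −0.03. With the replicate number as a block there were 930 DEGs, of which 893 were among the 895. Read depth per gene is unknown, so low genes are limited by the spread of replicates.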
